A study of Mus musculus with 9 samples.

Results

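MHC class I antigen presentation was followed through 9 genes, B2m, H2-K1, H2-D1, Tap1, Tap2, Tapbp, Psmb8, Psmb9 and Nlrc5, taken with every probe that the platform table names by these symbols. They had 13 of the 25697 probes and were 9 of the 16593 named genes on a mouse Illumina bead array. RNA was measured in 3 kinds of cultured mouse cells on 9 arrays. GSC were 4 lines of germline stem cells that the labels call unipotent, with 1 array per line. gPS were 3 clonal pluripotent lines sorted for GFP, with 1 array per line, and the study's title describes pluripotency induced in adult germline stem cells. ESC were embryonic stem cells, also labelled pluripotent, on 2 arrays that are given as a duplicate. The labels used here give no strain, animal age, GFP construct, feeder layer or culture medium, and they do not say which GSC line a gPS line came from. If the ESC duplicate is technical, its spread is not a spread between cultures, and p-values measure the spread between these arrays only.

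Class I molecules show peptides of the cell's own proteins to cytotoxic T cells. A heavy chain, in the mouse H2-K or H2-D, pairs with the light chain beta-2 microglobulin, and peptides cut by the proteasome are carried into the endoplasmic reticulum by the TAP transporter and loaded with the help of tapasin. NLRC5 switches on the genes of this pathway, and interferon raises them through JAK and STAT proteins and interferon regulatory factors. Cultured pluripotent stem cells are known for low surface class I.

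The raw median signal of an array ranged from 83.6 to 101, and 9871 to 11813 of its probes were detected (p under 0.01). The lowest detected signal corresponded to a normalized log2 level between 4.75 and 5.22, and levels at or under it have no order. Defining markers matched the labels. Dazl, an RNA-binding protein of germ cells, was detected on all 4 GSC arrays and on no gPS or ESC array, and Nanog, a pluripotency transcription factor, on all gPS and ESC arrays and on no GSC array. Of 11 tested germline markers 9 fell in gPS and 8 in ESC, where 30.8% and 29.7% of all genes fell. A gene was tested if detected on 2 or more of the 9 arrays. Of these 11 markers 6 met this only with GSC arrays, as did 15.4% of all tested genes. They made up 6 of the falls in gPS and 5 in ESC, so these shares are partly set by the filter. Lin28a, also among the 11, rose by 1.70 in gPS and 1.35 in ESC. Of 12 pluripotency markers 11 and 12 rose, where 25.6% and 24.9% of all genes rose, and 3 of the 12 met the filter only with gPS or ESC arrays. GSC 1 and GSC 3 had a Pearson r of 0.995 across genes, against 0.957 to 0.977 for the other pairs of GSC lines, and the SD of their differences was 0.21. GSC 1 and GSC 3 also had the highest summed level of 14 fibroblast and feeder cell markers, at 7090 and 5960 against 1670 on GSC 2 and 1140 on GSC 4. The gPS arrays lay between 3230 and 4580 and the ESC arrays between 3360 and 4080. All levels below are normalized log2 intensities, all changes are differences of group means on that scale, and fitted adjusted p-values are from limma with Benjamini-Hochberg adjustment over 9488 genes, called under 0.05.

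RefSeq promoter windows of 250 bases before the start site (GRCm38.p6) were at hand for 7 of the 9 members. Those of B2m, H2-D1, Tapbp and Tap1 are shown because they stand for the light chain, a classical heavy chain, tapasin and the peptide transporter. Capitals mark 3 motifs on either strand: AANNGAAA, a core that interferon regulatory factors bind, CCAAT, which NF-Y binds, and the NF-kB consensus.
B2m (chr2:122147437-122147686, plus strand): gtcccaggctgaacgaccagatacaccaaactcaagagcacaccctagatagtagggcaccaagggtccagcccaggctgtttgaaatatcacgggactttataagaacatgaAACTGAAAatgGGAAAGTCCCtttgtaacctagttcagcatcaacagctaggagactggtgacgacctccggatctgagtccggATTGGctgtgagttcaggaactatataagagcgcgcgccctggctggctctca
H2-D1 (chr17:35262844-35263093, plus strand): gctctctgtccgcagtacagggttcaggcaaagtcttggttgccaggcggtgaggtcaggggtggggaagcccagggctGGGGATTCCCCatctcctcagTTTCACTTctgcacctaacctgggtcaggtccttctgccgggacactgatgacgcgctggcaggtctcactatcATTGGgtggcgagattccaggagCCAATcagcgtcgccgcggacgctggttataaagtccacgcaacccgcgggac
Tapbp (chr17:33919228-33919477, plus strand): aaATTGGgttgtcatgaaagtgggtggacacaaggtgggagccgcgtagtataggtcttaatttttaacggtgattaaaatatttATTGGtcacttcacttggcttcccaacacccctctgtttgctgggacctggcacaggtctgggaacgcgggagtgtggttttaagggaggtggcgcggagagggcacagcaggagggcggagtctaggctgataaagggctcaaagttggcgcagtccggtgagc
Tap1 (chr17:34187306-34187555, plus strand): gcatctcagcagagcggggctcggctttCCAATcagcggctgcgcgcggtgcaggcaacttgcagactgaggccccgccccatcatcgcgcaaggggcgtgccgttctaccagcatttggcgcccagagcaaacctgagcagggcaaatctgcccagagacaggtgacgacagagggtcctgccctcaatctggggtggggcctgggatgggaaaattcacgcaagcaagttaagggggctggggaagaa

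In the B2m window AANNGAAA began 137 bases, the NF-kB consensus 126 bases and CCAAT 53 bases before the start, with no overlap between them. The H2-D1 window held the same 3 motifs, with overlapping NF-kB matches at 171 and 170, AANNGAAA at 150 and CCAAT at 76 and 53. AANNGAAA and the NF-kB consensus each stood in the windows of 3 members (B2m, H2-K1 and H2-D1), and in 21.3% and 7.3% of all 32851 windows. CCAAT stood in 6 of the 7 members, all but Psmb8, and in 33.8% of all windows. Tapbp and Tap1 had CCAAT and neither of the other motifs. Tap1 and Psmb9 are transcribed away from each other from starts 226 bases apart, so that their windows overlap. The CCAAT of Tap1 and that of Psmb9 are the same site, counted above for both members. Along chromosome 17 the order is Tapbp, H2-K1, Psmb9, Tap1, Psmb8, Tap2 and H2-D1, while B2m lies on chromosome 2 and Nlrc5 on chromosome 8. A match of these letters is a description of the window and not a measured binding site.

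The light chain and 2 peptide loading genes were lower in both pluripotent cell types than in GSC, and no member was called higher. Of the 9 members 6 could be tested, and 3 of them (B2m, Tapbp and Tap2) fell in gPS, against 30.8% of all genes that fell in that comparison (56.3% called in either direction). The same 3 fell in ESC, against 29.7% of all genes (54.5% in either direction). No rise of a member passed, where 25.6% of all genes rose in gPS and 24.9% in ESC. The filter asked for detection on 2 of the 9 arrays, and 4 of the 6 (Tap2, Psmb8, Psmb9 and Nlrc5) met it only with GSC arrays, as did 15.4% of all tested genes. Such a gene is near background in gPS and ESC and could hardly be called higher there, so the share of falls and the lack of rises among the members are partly set by the filter. B2m and Tapbp met it without GSC arrays. Both comparisons share the GSC arrays. Between gPS and ESC none of the 6 passed, where 1.03% of all genes did (0.611% lower and 0.422% higher in gPS). Each array measured the RNA of a whole culture, so fewer expressing cells in it and less RNA per cell cannot be told apart.

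**Figure D1:**
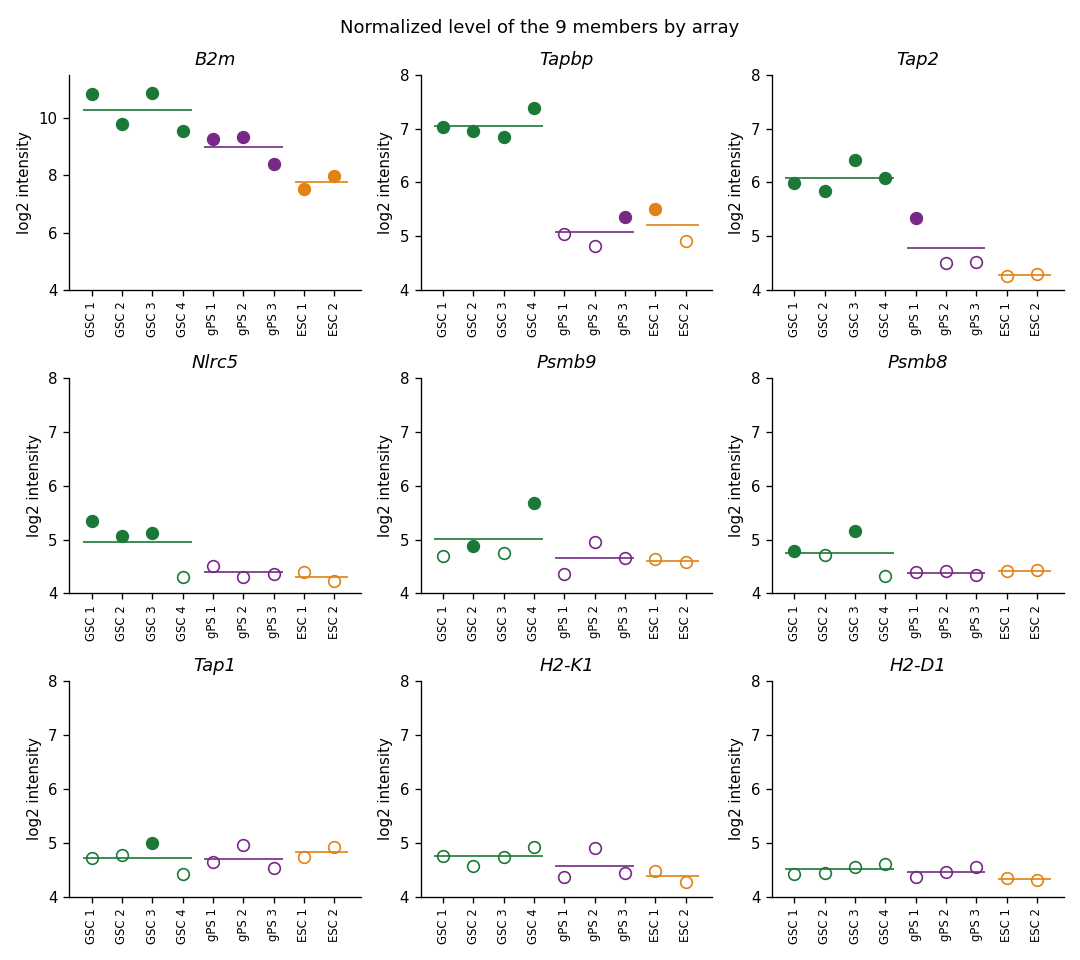
Normalized log2 intensity of the 9 members on each array (points) with the group mean (lines), filled where the probe was detected at p under 0.01 and open where it was not, for the probe used or the brighter H2-K1 probe. B2m falls from the GSC through the gPS to the ESC arrays, Tapbp and Tap2 are detected on all 4 GSC arrays and at most 1 array of each other group, and H2-K1 and H2-D1 are open on all 9 arrays. The B2m panel has its own axis range.

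B2m encodes the light chain that every class I heavy chain needs to reach the cell surface. Its level was 10.84, 9.78, 10.87 and 9.54 on GSC 1 to 4, 9.27, 9.33 and 8.40 on gPS 1 to 3, and 7.52 and 7.98 on the ESC arrays. Every GSC array was above every gPS array and every gPS array above both ESC arrays, and the lowest GSC array and the highest gPS array were 9.54 and 9.33. The group means were 10.26 ± 0.70 (SD, n = 4) in GSC, 9.0 ± 0.52 (n = 3) in gPS and 7.75 ± 0.33 (n = 2) in ESC. B2m was 2.39-fold lower in gPS than in GSC (log2 difference -1.26, SE 0.36, limma adjusted p = 0.0128). It was 5.69-fold lower in ESC than in GSC (-2.51, SE 0.41, limma adjusted p = 0.00047). The step from gPS to ESC did not pass: gPS was above ESC by 1.25 (95% interval 0.29 to 2.21, limma adjusted p = 0.205), so the order of these neighbours rests on arrays that do not overlap and not on a called difference. The share of all genes whose groups stand apart in this order is not given here, so the order is not particular to B2m.

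Another probe of B2m, ILMN_2739999, gave 10.73, 9.60, 10.85 and 9.50 on the GSC arrays, 8.72, 9.18 and 8.22 on the gPS arrays and 7.65 and 7.55 on the ESC arrays. The order of the groups was that of the probe ILMN_1216746 above. In a limma fit of the 12695 kept probes, which called 54.7%, 53.3% and 1.13% of them in the 3 comparisons, its differences were -1.46 for gPS against GSC (adjusted p = 0.00509), -2.57 for ESC against GSC (adjusted p = 0.000339) and 1.11 for gPS against ESC (adjusted p = 0.236). The remaining probe, ILMN_2670561, was not well above background on any array, with group means between 4.23 and 4.29.

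Within GSC, B2m followed the fibroblast markers: GSC 1 and GSC 3, with the highest marker sums, were the high B2m arrays. The summed level of 4 tested leukocyte markers split the GSC arrays in the same way. It was 1070 and 1160 on GSC 1 and GSC 3, and 204 and 547 on GSC 2 and GSC 4. The fibroblast marker sum in gPS and ESC was carried by 2 of the 14 markers. Acta2, a smooth muscle actin, rose by 3.25 in gPS and 3.61 in ESC, to mean levels of 10.26 and 10.62, and Vim, the filament protein vimentin, rose by 2.25 in gPS (limma adjusted p = 0.0341) and was 2.26 higher in ESC (adjusted p = 0.0565). Of the 14, 3 rose and 3 fell in gPS and 2 rose and 3 fell in ESC. The remaining rise in gPS was that of Tagln, undetected on all GSC arrays and at least 1.28-fold higher (limma adjusted p = 0.00322). Of all genes 25.6% rose and 30.8% fell in gPS, and 24.9% rose and 29.7% fell in ESC. The falls among the 14 were those of the growth factor receptor Pdgfra, undetected on all gPS and ESC arrays and at least 3.12-fold and 3.08-fold lower, the collagen Col5a1 (-1.34 and -1.19) and the transcription factor Twist1 (-0.96 and -1.29), the same direction as B2m. The sum of the 12 markers without Acta2 and Vim, a choice made after their values were seen, was 6320 and 5200 on GSC 1 and GSC 3 and 1310 and 1060 on GSC 2 and GSC 4. It lay between 1130 and 2080 in gPS and between 1100 and 1280 in ESC, near GSC 2 and GSC 4, whose B2m levels of 9.78 and 9.54 were above those of every gPS and ESC array. The part of these cells in the B2m difference was not tested. With GSC 1 and GSC 3 left out, the B2m difference from GSC was -0.66 in gPS (limma adjusted p = 0.1105, no longer called) and -1.91 in ESC (adjusted p = 0.00188). Without gPS 3, the lowest gPS line, the gPS difference was -0.96 (adjusted p = 0.0603). Within GSC, Tapbp and Tap2 did not stand in the order of the marker sums, and their calls in both comparisons held without GSC 1 and GSC 3, with differences of -2.10 and -1.18 in gPS.

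**Figure D2:**
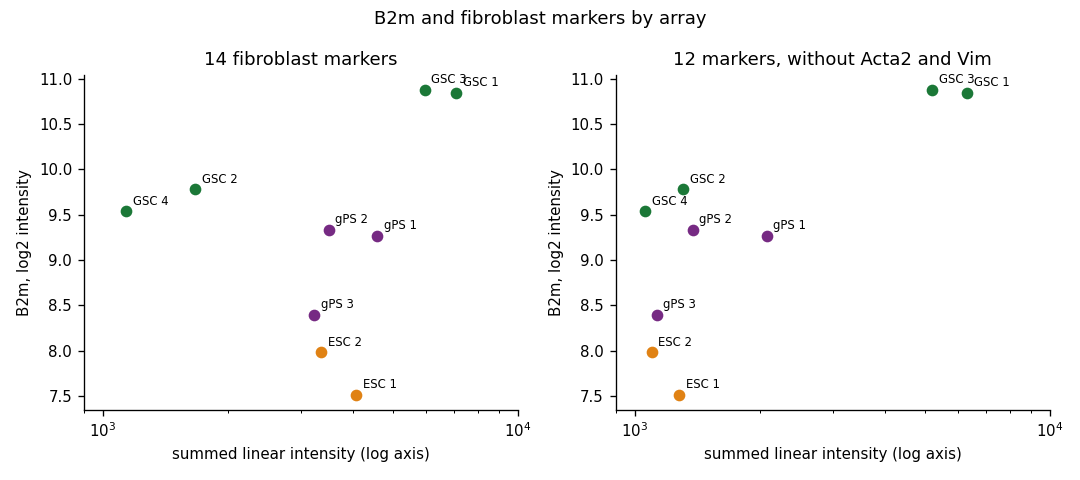
Normalized log2 intensity of B2m against the summed linear intensity (log axis) of 14 fibroblast and feeder cell markers (left) and of the 12 left without Acta2 and Vim (right), 1 point per array. GSC 1 and GSC 3 lie high on both axes, and the gPS and ESC arrays have sums from 3230 to 4580 on the left and from 1100 to 2080 on the right, with B2m under every GSC array.

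Tapbp encodes tapasin, which holds empty class I molecules at the peptide transporter. Its level was 7.02, 6.96, 6.85 and 7.38 on the GSC arrays, 5.04, 4.82 and 5.36 on the gPS arrays and 5.51 and 4.91 on the ESC arrays. GSC lay apart from both other groups, which overlapped each other and were mostly under detection, with 1 detected array of 3 gPS and 1 of 2 ESC. Where a group was at or under detection its level is a bound, and the fold is against the higher of the probe's own signal and the lowest detected signal on each array. On this basis Tapbp was at least 3.46-fold lower in gPS (fitted difference -1.98, SE 0.21, limma adjusted p = 1.91e-05) and at least 3.33-fold lower in ESC (-1.84, SE 0.24, adjusted p = 9.09e-05). A second Tapbp probe was detected on GSC 2 alone, at 5.21, and was not tested.

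Tap2 encodes a subunit of the TAP peptide transporter. It stood at 5.99, 5.84, 6.42 and 6.09 on the GSC arrays, 5.34, 4.51 and 4.52 on the gPS arrays and 4.27 and 4.30 on the ESC arrays. All 4 GSC arrays and gPS 1 were detected and the other 4 arrays were not. Tap2 was at least 1.86-fold lower in gPS (fitted difference -1.30, SE 0.23, limma adjusted p = 0.000675) and at least 1.90-fold lower in ESC (-1.80, SE 0.26, adjusted p = 0.000197). Tap1, the partner subunit, was detected on GSC 3 alone, at 5.0, with group means of 4.73, 4.71 and 4.83 in GSC, gPS and ESC, so no TAP1 difference could be measured.

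Nlrc5, the transcriptional activator of class I genes, was at 5.35, 5.06, 5.13 and 4.30 on the GSC arrays, 4.51, 4.30 and 4.36 on the gPS arrays and 4.40 and 4.22 on the ESC arrays. It was detected on 3 of 4 GSC lines and on no pluripotent array, and GSC 4 lay within the range of the pluripotent arrays. The comparisons of gPS and ESC with GSC did not pass (limma adjusted p = 0.0560 and 0.0561). Without GSC 4 both passed (adjusted p = 0.00197 and 0.0022), but that leaves out the GSC line in which Nlrc5 was low, and with both other groups under detection no size of difference is given.

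Psmb8 and Psmb9 encode catalytic subunits of the immunoproteasome, the interferon-induced form that cuts peptides suited to class I. Psmb8 was at 4.79, 4.72, 5.15 and 4.33 on the GSC arrays and between 4.34 and 4.44 on the 5 others, detected on 2 GSC lines only. Psmb9 was at 4.69, 4.88, 4.75 and 5.69 on the GSC arrays, and at 4.36, 4.96 and 4.65 in gPS and 4.64 and 4.58 in ESC, again detected on 2 GSC lines only. The lines were not the same ones: Psmb8 was high on GSC 3 and Psmb9 on GSC 4. Neither gene passed in any comparison, with limma adjusted p-values from 0.127 to 0.262 against GSC, and no size is given against groups under detection. Psmb8 passed for gPS without GSC 4 (adjusted p = 0.0245), the GSC line in which it was lowest.

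H2-K1 and H2-D1, the classical heavy chains, were not well above background on any of the 9 arrays. The H2-K1 probes had group means of 4.29, 4.22 and 4.32 and of 4.75, 4.57 and 4.38 in GSC, gPS and ESC, and the H2-D1 probe of 4.51, 4.46 and 4.33. In a limma fit of all 25697 probes without a detection filter, which called 25.9%, 25.5% and 0.697% of them in the 3 comparisons, none of the 4 probes of H2-K1, H2-D1 and Tap1 passed (smallest adjusted p = 0.159, for an H2-K1 probe in ESC against GSC). In that fit B2m in gPS had adjusted p-values of 0.0530 and 0.0263 by its probes. Class I heavy chain genes differ between mouse strains and resemble each other closely, and the probes' sequences were not used here, so these probes set no level for the transcripts.

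**Figure D3:**
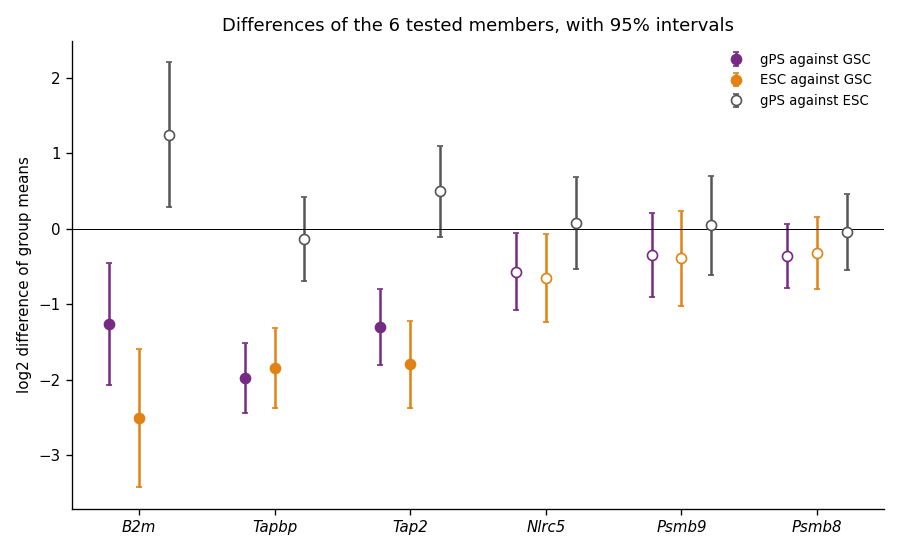
Fitted differences of group means on the log2 scale for the 6 tested members, with 95% intervals, filled where the limma adjusted p was under 0.05. B2m, Tapbp and Tap2 lie under 0 in both comparisons with GSC, and every gPS against ESC point is open. For members other than B2m the lower groups were wholly or partly under detection, so their points are fitted values and not measured sizes.

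Other class I chains moved in both directions. Of 18 chain genes of the list on the array, B2m included, 8 were tested, with 2 falls and 1 rise in each comparison with GSC and a median near that of all genes (-0.08 in gPS and -0.16 in ESC). Of all genes 30.8% fell and 25.6% rose in gPS, and 29.7% fell and 24.9% rose in ESC. The chains had no larger share of falls or rises than all genes. Of the 8 chains 3, H2-M3 among them, met the detection filter only with GSC arrays. A further 2, H2-Bl among them, met it only with gPS or ESC arrays, so the falls and rises are partly set by the filter. H2-M3, a nonclassical chain that presents formylated peptides, was at 8.11, 8.30, 8.13 and 7.86 on the GSC arrays, 5.04, 4.72 and 5.17 in gPS and 4.44 and 4.86 in ESC. GSC stood far above both other groups, of which only 1 gPS array was detected. H2-M3 was at least 7.46-fold lower in gPS (limma adjusted p = 3.11e-07) and at least 7.68-fold lower in ESC (adjusted p = 4.89e-07), the deepest fall among the 8 tested chains. H2-Bl, detected on GSC 3 alone among the GSC arrays, was at least 1.75-fold higher in gPS (limma adjusted p = 0.00577) and at least 2.52-fold higher in ESC (adjusted p = 0.00129). H2-T23, the Qa-1 chain seen by natural killer cell receptors, was detected on all 9 arrays and differed by 0.23 in gPS and 0.44 in ESC without passing. H2-Q1, H2-Q7, H2-Q8 and H2-M10.1, the other tested chains, did not pass, and near-identical copies make a probe's gene uncertain in this family. Of 5 tested class I-like molecules, Fcgrt, the neonatal Fc receptor, was at least 1.68-fold lower in gPS (limma adjusted p = 0.0393), with 2 of 3 gPS arrays detected, and Cd1d1, Hfe and Procr did not pass. Mr1, which presents vitamin metabolites, was detected on no GSC array, 1 gPS array and 1 of 2 ESC arrays, and was at least 1.20-fold higher in ESC (adjusted p = 0.0221).

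Of 5 tested genes of the peptide loading list, 3 fell in each comparison with GSC, where 30.8% and 29.7% of all genes fell, and Calr rose in ESC. Tap2 and Tapbpl met the detection filter only with GSC arrays. Besides Tap2 and Tapbp, Pdia3, an oxidoreductase of the loading complex, fell in gPS (-0.70, limma adjusted p = 0.00501; ESC -0.46, adjusted p = 0.0643). Tapbpl, a relative of tapasin that edits peptides, was undetected on both ESC arrays and at least 1.28-fold lower there (adjusted p = 0.0219), and did not pass in gPS (adjusted p = 0.0665), where 1 of 3 arrays was detected. Calr, the chaperone calreticulin, rose in ESC by 1.66 (limma adjusted p = 0.0254), with gPS 1 at 8.03, under every GSC array, and gPS 2 and gPS 3 at 10.49 and 10.39. Calr serves many glycoproteins. Its rise was called in 17 of 23 alternatives, and was lost without GSC 4, ESC 1 or ESC 2, without GSC 1 and GSC 3 together, without a detection filter and with the ESC arrays averaged (adjusted p from 0.0506 to 0.126).

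The other immunoproteasome genes were detected on all 9 arrays. Psmb10, the remaining inducible catalytic subunit, was at 11.25, 10.60, 11.43 and 9.97 on the GSC arrays, 9.77, 9.56 and 9.66 in gPS and 7.99 and 9.14 in ESC. The 3 groups did not overlap, and the GSC lines stood in the order of their fibroblast marker sums except that GSC 3 was above GSC 1. Psmb10 fell by 1.15 in gPS (SE 0.36, limma adjusted p = 0.0181) and by 2.25 in ESC (SE 0.40, adjusted p = 0.000838), and without GSC 1 and GSC 3 by 0.62 (adjusted p = 0.1623) and 1.72 (adjusted p = 0.00495). Psme1 and Psme2 encode the PA28 activator, which opens the proteasome. Psme1 was at 11.81, 11.36, 11.93 and 11.30 on the GSC arrays, 9.89, 9.86 and 9.42 in gPS and 8.99 and 9.29 in ESC. Psme2 was at 9.11, 8.81, 9.13 and 8.83, then 7.60, 7.55 and 7.28, and then 6.53 and 6.81 on the same arrays. For both genes the groups did not overlap and ran GSC, gPS, ESC from high to low, and GSC 1 and GSC 3 were again the highest GSC arrays. The share of all genes with groups apart in this order is not given here. Of all genes 56.3% in gPS and 54.5% in ESC were called against GSC in either direction. Psme1 fell by 1.88 and 2.46 (limma adjusted p = 2.7e-05 and 1.18e-05) and Psme2 by 1.49 and 2.30 (adjusted p = 2.75e-05 and 3.95e-06) in gPS and ESC, and by 1.61 and 1.34 in gPS without GSC 1 and GSC 3, still called. The gPS to ESC step did not pass for Psmb10, Psme1 or Psme2, with differences of 1.10, 0.58 and 0.80 and limma adjusted p-values of 0.248, 0.293 and 0.0886. In all, 3 of the 5 genes of the immunoproteasome and activator list fell in each comparison with GSC, beside 30.8% and 29.7% of all genes.

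Of 4 genes of the constitutive counterparts, 1 rose and 1 fell in gPS and 1 rose in ESC. Of all genes 25.6% rose and 30.8% fell in gPS, and 24.9% rose in ESC. Psmb5, the counterpart of Psmb8, was at 7.55, 7.66, 7.43 and 7.03 on the GSC arrays, 8.65, 8.42 and 7.99 in gPS and 9.48 and 9.81 in ESC, the reverse of the order seen for Psmb10. It rose by 0.93 in gPS (limma adjusted p = 0.00329) and 2.23 in ESC (adjusted p = 2.57e-05), and was lower in gPS than in ESC by a difference of -1.30 (adjusted p = 0.0399), a call kept in 8 of 23 alternatives. With median scaling the rise in gPS was 0.43 and did not pass. Psmb6 and Psmb7, the counterparts of Psmb9 and Psmb10, differed from GSC by -0.10 to 0.16 and did not pass, although the 2 other Psmb7 probes rose by 0.49 to 0.82 in a fit of all detected probes. Psme3, the gamma activator, fell in gPS (-0.62, adjusted p = 0.0191).

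The inducible minus constitutive difference was also taken within each array, where it shows unequal change only. Psmb10 minus Psmb7, the pair in which both genes were detected on all arrays, differed from GSC by -1.31 in gPS (exact two-sided permutation p = 0.0571) and by -2.38 in ESC (exact permutation p = 0.0667, the smallest of 15 splits). Psmb8 was undetected on 7 of the 9 arrays, so Psmb8 minus Psmb5 moves mostly with Psmb5. Psmb9 was also undetected on 7, and neither Psmb9 nor Psmb6 passed against GSC. Psmb8 minus Psmb5 differed by -1.30 in gPS (exact permutation p = 0.0286, the smallest that 35 splits allow), beside the Psmb5 rise of 0.93, and by -2.55 in ESC (exact permutation p = 0.0667), beside a Psmb5 rise of 2.23. Psmb9 minus Psmb6 differed by -0.24 (exact permutation p = 0.657) and -0.29 (exact permutation p = 0.667). Adjusted over the 9 tests made, none passed (smallest 0.15), and the groups are too small for gPS against ESC to go below an exact permutation p of 0.1.

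Among transcription regulators of class I genes, 6 of 12 tested fell in gPS and none rose, where 30.8% of all genes fell and 25.6% rose. In ESC 5 fell and 2 rose, where 29.7% of all genes fell and 24.9% rose, and 4 of the 12 met the detection filter only with GSC arrays. Irf1, the interferon-induced activator that binds class I promoters, was at 12.61, 12.41, 12.46 and 12.22 on the GSC arrays, 9.72, 8.70 and 9.48 in gPS and 8.72 and 8.75 in ESC. All GSC arrays lay far above the others, with gPS 2 at the level of ESC. Irf1 was 8.75-fold lower in gPS (limma adjusted p = 1.44e-06) and 12.9-fold lower in ESC (adjusted p = 1.45e-06), and all 5 of its probes fell in both. Irf2, which binds the same element, was at least 5.46-fold lower in gPS and at least 5.52-fold lower in ESC (limma adjusted p = 1.82e-06 and 1.77e-06). Irf8, best known from myeloid cells, was detected on all 4 GSC arrays and on no other array, and was at least 3.02-fold and 2.98-fold lower (limma adjusted p = 1.03e-05 and 4.2e-05). The NF-kB subunit Rela fell by 0.83 and 0.89 in gPS and ESC, its relative Relb by 0.86 in gPS, and Rfxap, a subunit of the RFX complex that acts with NLRC5, by 0.64 and 1.26. Nfyb and Nfyc, subunits of the CCAAT-binding NF-Y, rose in ESC by 0.44 and 0.46 (limma adjusted p = 0.0471 and 0.0418), calls that stood in 9 and 12 of 23 alternatives. Nfya, Creb1 and Usf1 did not pass in any comparison.

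**Figure D4:**
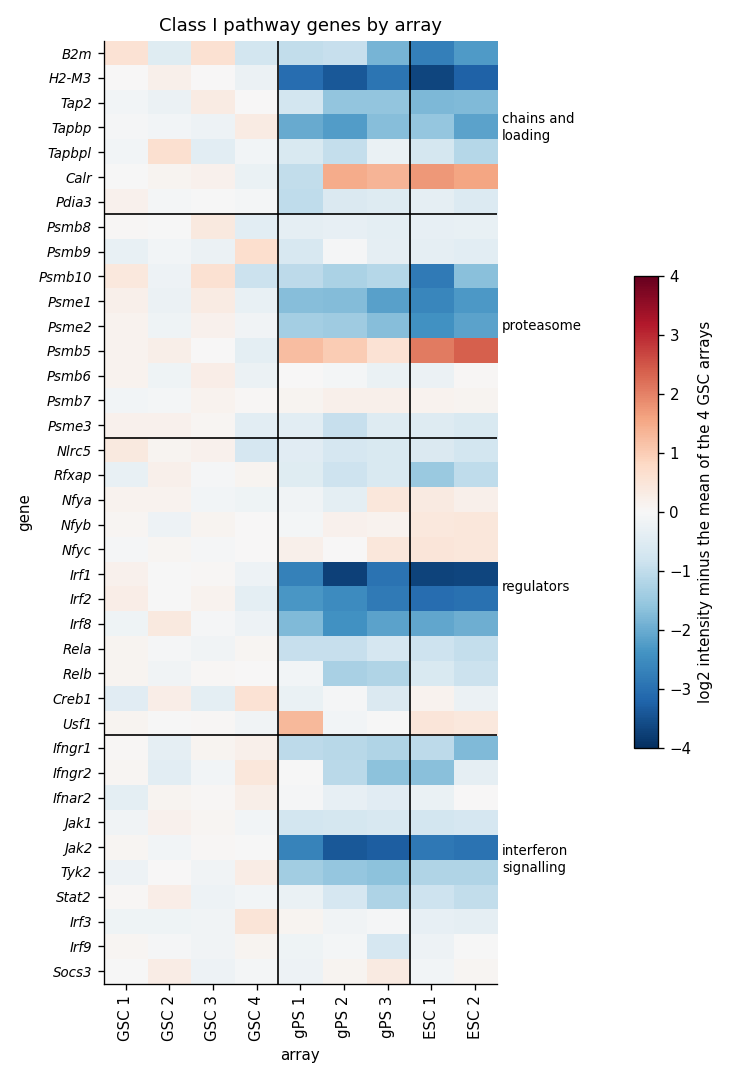
Log2 intensity minus the mean of the 4 GSC arrays for class I pathway genes (rows) on the 9 arrays (columns), blue for lower and red for higher. Rows are the tested genes of the loading, proteasome, regulator and interferon signalling lists. Of the 8 tested class I chains only B2m and H2-M3, the 2 that fell, are drawn. H2-Bl, which rose, and the 5 chains that did not pass are left out. H2-M3, Irf1, Irf2 and Jak2 are blue on all 5 pluripotent arrays, Psmb5 is red on all 5, and Calr is red on 4 of the 5.

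Of 10 tested receptors, kinases and other signalling genes of the interferon pathway, 5 fell and none rose in each comparison with GSC, beside 30.8% and 29.7% of all genes that fell. Of the 5 falls in each, 4 were of genes that met the detection filter only with GSC arrays. Jak2, a kinase of the interferon gamma receptor, was detected on all 4 GSC arrays between 7.74 and 7.93 and on no other array, and was at least 6.53-fold lower in gPS and at least 6.45-fold lower in ESC (limma adjusted p = 3.99e-07 and 1.97e-06). Tyk2, a kinase of the type I receptor, fell by 1.53 and 1.20 (adjusted p = 2.08e-05 and 0.000309), though its 2 other probes did not pass in ESC. Ifngr1, the ligand-binding chain of the interferon gamma receptor, was detected in GSC alone and was at least 1.95-fold and 1.93-fold lower (adjusted p = 0.00086 and 0.000449).

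Of 24 tested interferon-stimulated genes, 13 fell and 3 rose in gPS, where 30.8% of all genes fell and 25.6% rose, and 15 fell and 3 rose in ESC, where 29.7% fell and 24.9% rose. In each comparison 9 of the falls were of genes that met the detection filter only with GSC arrays. The deepest fall among them was that of Ifi27, a mitochondrial interferon-induced protein, at 10.95, 10.72, 11.05 and 11.35 on the GSC arrays, 6.31, 5.15 and 5.11 in gPS and 5.48 and 5.58 in ESC. It was at least 44.4-fold lower in gPS (limma adjusted p = 1.12e-07), with 1 of 3 arrays undetected, and differed by -5.49 in ESC (adjusted p = 4.01e-07). Oasl2, of the oligoadenylate synthetase family, was at least 14.2-fold and 17.5-fold lower, and Gbp2, a guanylate-binding protein, at least 12.3-fold and 14.4-fold lower, although other probes of Oasl2 and Gbp2 gave smaller falls (-1.68 and -0.73 in gPS). The rises were of other family members. Ifitm2, a membrane protein that restricts virus entry, rose by 3.08 and 2.75 (adjusted p = 0.000402 and 0.00205), and Ifitm3, which also marks early germ cells and stem cells, by 2.36 in gPS (adjusted p = 0.0284). Within GSC, Ifitm3 was 10.47 and 10.58 on GSC 1 and GSC 3 and 7.39 and 7.04 on GSC 2 and GSC 4, the split of the fibroblast markers. Ddx58, which encodes the RNA sensor RIG-I, was detected on no GSC array and on all others, at 6.03, 5.48 and 6.39 in gPS and 7.67 on each ESC array. It exceeded GSC at least 2.17-fold in gPS and 7.07-fold in ESC (limma adjusted p = 0.000153 and 2.08e-06), and was lower in gPS than in ESC by a difference of -1.70 (adjusted p = 0.0142). Ifitm1 rose by 1.25 in ESC (adjusted p = 0.0381) and was 0.47 above GSC in gPS (adjusted p = 0.338), and its gPS against ESC difference of -0.77 did not pass.

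Markers of other cells were set beside these values. Of 10 leukocyte markers on the array 4 were tested, and Ptprc, Cd3e, Itgam, Adgre1, Tyrobp and Cd52 did not pass the detection filter. The leukocyte sum lay between 204 and 1160 in GSC, 1360 and 2060 in gPS and 2310 and 2370 in ESC, and in gPS and ESC it was nearly all Laptm5, a lysosomal membrane protein, which rose by 3.73 and 4.29. Without Laptm5, a choice made after its values were seen, the sum of the other 3 was 151 to 998 in GSC. It was 67.2 to 90.4 in gPS and 84.4 to 88.0 in ESC, the direction of B2m, while the full sum ran the other way. Lyz2, the macrophage lysozyme, was at least 10.7-fold lower in gPS, with 1 of 3 arrays detected, and fell by 3.21 in ESC. Fcer1g, an Fc receptor chain, was called lower in gPS (limma adjusted p = 0.0301) and not in ESC (adjusted p = 0.0590), and Cd14 passed in neither, both undetected on all gPS and ESC arrays. Fcer1g and Cd14 met the detection filter only with GSC arrays, so the direction of the sum without Laptm5 is partly set by the filter. In all, 2 of the 4 leukocyte markers fell and 1 rose in gPS, and 1 fell and 1 rose in ESC. Beside this list and those below, 30.8% of all genes fell and 25.6% rose in gPS. In ESC 29.7% fell and 24.9% rose. Pecam1, an endothelial marker that pluripotent cells also carry, was detected on 1 GSC array and was at least 3.71-fold and 7.42-fold higher, and the 4 tested Sertoli cell markers included 2 that fell and 2 that rose in gPS. None of 5 Leydig cell markers was tested. The part of feeder or other cells in the class I levels was not tested.

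The genes whose levels were most like those of B2m over the 9 arrays were Nudt7, Selenon, Thtpa, Ssbp1 and 9430015G10Rik, with Pearson r from 0.965 to 0.977 among 9488 genes. These arrays share the 3 groups, so that any gene stepping down from GSC through gPS to ESC scores high. Nudt7, a peroxisomal coenzyme A hydrolase, ran from 7.51 on GSC 1 to 4.53 on ESC 2. Of the members, Tap2 had the highest likeness, with r = 0.88 at rank 237, followed by Nlrc5 at 0.80, Psmb8 at 0.75, Tapbp at 0.68 and Psmb9 at 0.21.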

How the data were processed

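Per the labels, total RNA (400 ng, 12 h of in vitro transcription) was labelled with biotin for Illumina arrays. The deposited intensity is a signal per probe and array that the authors left unnormalized, with a detection p-value per the file headers. BeadStudio 3.2, lumi and RMA are listed in the submitters' processing notes. The authors' processed table, taken as log2, was used as an alternative. The signal was normalized in R 4.3.3 by the neqc function of limma 3.58.1 (offset 16, negative controls inferred from detection p). Probes with a detection p under 0.01 on 2 or more of the 9 arrays were kept (12695 of 25697), and a gene was its probe with the highest mean (9488 genes, 738 of them unnamed probes). The platform annotation gave 1 symbol for 23978 probes, several for 0 and none for 1719. A single fit gave each group a mean. No depth applies, and the number of arrays limits the precision. The fit was checked on simulated data.

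Members, gene lists (17 lists, 222 genes, 198 on the array) and tests were chosen with earlier results of these data known. Named genes are the members, the genes of 6 class I lists, the 3 largest called rises and falls of 4 others, the 2 brightest genes of a marker list and the 5 genes most like B2m. Other genes (Dazl, Nanog, Lin28a, Ptprc, Cd3e, Itgam, Adgre1, Tyrobp, Cd52, Pdgfra, Col5a1, Twist1, Tagln, Fcer1g and Cd14) were named after their values were seen. Alternatives covered background, scaling, filter, probes, arrays and the replicate number.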

Additional observations from a re-analysis of the deposited data

How the results depend on the processing

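Each comparison was repeated under 23 alternatives. Of 18 results for members, 5 passed under every alternative that tested them (B2m in ESC against GSC, and Tap2 and Tapbp against GSC in gPS and ESC), and no member result with a call changed sign. The number of members lower in gPS than in GSC was 1 with probes detected on all 9 arrays, where B2m was the member tested, and 2 to 5 with each array left out (5 without GSC 4). In ESC against GSC it was 1 with that filter and 3 to 4 with an array left out. The labels do not say that the replicate numbers pair the samples. Same-numbered GSC and gPS arrays had deviation correlations of 0.08, -0.07 and -0.16. These values cannot decide whether the lines are paired, since differently numbered arrays were not set beside them. With the replicate number as a block, 5 members were lower in gPS, adding Nlrc5 (fitted difference -0.79, limma adjusted p = 0.00476) and Psmb8 (-0.50, adjusted p = 0.0472), and 4 in ESC. Replicate number 4 occurs in GSC alone, so this block takes GSC 4 out of the differences, and the gPS differences equal those without GSC 4; it is no separate support. An intensity trend brought Nlrc5 to adjusted p = 0.0489 and 0.0488. Median scaling moved the median of all genes to -0.39 and -0.43, with 4048 lower and 1539 higher in gPS against 2920 and 2426 by quantiles, and 3915 and 1483 in ESC against 2814 and 2358. B2m differed from GSC by -1.59 in gPS with it. The calls over all genes between gPS and ESC ranged from 7 to 100 lower and 1 to 65 higher. Psmb10 in gPS passed in 20 of 23 alternatives, not without gPS 2 (adjusted p = 0.0578), without a filter (0.0634) or without GSC 1 and GSC 3. The ESC rises among regulators numbered 0 to 3. Ddx58 in gPS against ESC passed in 16 of the 22 alternatives that tested it. Levels near the detection limit compress the differences of Tap2, Nlrc5, Psmb8 and Psmb9.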

Other observations

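MHC class II genes were mostly under detection, with 3 of 11 on the array tested. Of these 3, 2 met the detection filter only with GSC arrays, H2-Oa among them. In each comparison with GSC 2 of the 3 fell, where 30.8% of all genes fell in gPS and 29.7% in ESC. H2-DMa, which loads peptides on class II, was at 6.69, 7.26, 7.03 and 6.56 on the GSC arrays, 5.80, 6.22 and 5.76 in gPS and 5.47 and 5.84 in ESC. It fell by 0.96 and 1.23 (limma adjusted p = 0.00296 and 0.00146). H2-Oa, an inhibitor of that loading, was detected on the 4 GSC arrays alone and was at least 1.18-fold and 1.17-fold lower (adjusted p = 0.00114 and 0.000743). Cd74, the invariant chain, did not pass.

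Ligands of T cell and natural killer cell receptors moved apart. Of 4 tested, 1 fell and 2 rose in each comparison with GSC. Of all genes 30.8% fell and 25.6% rose in gPS, and 29.7% fell and 24.9% rose in ESC. The gene that fell, Cd274, met the detection filter only with GSC arrays. Cd274, which encodes the checkpoint ligand PD-L1 and is raised by interferon gamma, lay between 8.25 and 8.36 on the GSC arrays and between 4.34 and 4.44, undetected, on the 5 others. It was at least 9.0-fold lower in gPS and at least 8.9-fold lower in ESC (limma adjusted p = 6.29e-09 and 2.37e-08). Pvr, a ligand of DNAM-1 and TIGIT, was at least 2.35-fold and 2.32-fold higher, with 3 of 4 GSC arrays detected (adjusted p = 7.05e-05 and 0.000212), and Icam1, an adhesion ligand of leukocytes, rose by 1.03 and 1.34 (adjusted p = 0.00147 and 0.000645). Cd47 did not pass. These differences are of RNA, and no surface protein was measured.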
